A study of Mus musculus with 2 samples.

Results

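The RNA of 10 genes that write, maintain and remove DNA methylation was measured in mouse liver at embryonic day 12.5. The genes are Dnmt1, Dnmt3a, Dnmt3b, Dnmt3l, Uhrf1, Uhrf2, Tet1, Tet2, Tet3 and Tdg, and they were found by matching gene identifiers to these symbols. They are 10 of the 43346 mouse gene identifiers in the tables, and all 10 had a row in both libraries. The study sequenced total RNA from 2 libraries of 1 group. The livers of 120 embryos were pooled for replicate 1 and those of 88 embryos for replicate 2. Both pools were of the B6NCrl strain, described as healthy, with males and females mixed and no treatment named. With 1 group there is no control and no second condition, so no p-value is given, and each value describes these pools.

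Methylation of cytosine in CpG pairs marks silent DNA in mammals. After replication, Uhrf1 binds the half-methylated CpG and brings in Dnmt1, which copies the mark to the new strand. Dnmt3a and Dnmt3b set new marks, and Dnmt3l, which has no catalytic activity of its own, stimulates them, chiefly in germ cells. Tet1, Tet2 and Tet3 oxidise methylated cytosine, and the glycosylase Tdg cuts out its most oxidised forms for base excision repair. The liver at this stage is a site of blood formation, and cell division there is frequent.

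Transcripts of 9 of the 10 genes were detected, meaning a TPM of at least 1 in both libraries. Over all 21474 protein-coding genes, 54.5% met the same limit. TPM is a share of all transcripts, a level scaled for transcript length, so it can be compared between genes. The maintenance factor Uhrf1 had the highest level, Dnmt1, Tdg, Dnmt3a and Uhrf2 formed the next range, Dnmt3b and Tet3 lay lower, and Tet1 and Tet2 were just above 1 TPM. Dnmt3l was not detected. Together the 10 genes held 44472 of 37.6 M expected reads in replicate 1 and 41867 of 34.7 M in replicate 2. Of the 11696 detected protein-coding genes, whose median was 14.2 TPM, Uhrf1 ranked at position 882 and Tet2 at 11117. Because the tissue was measured in bulk, fewer cells of a type and less RNA per cell cannot be told apart.

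**Figure D1:**
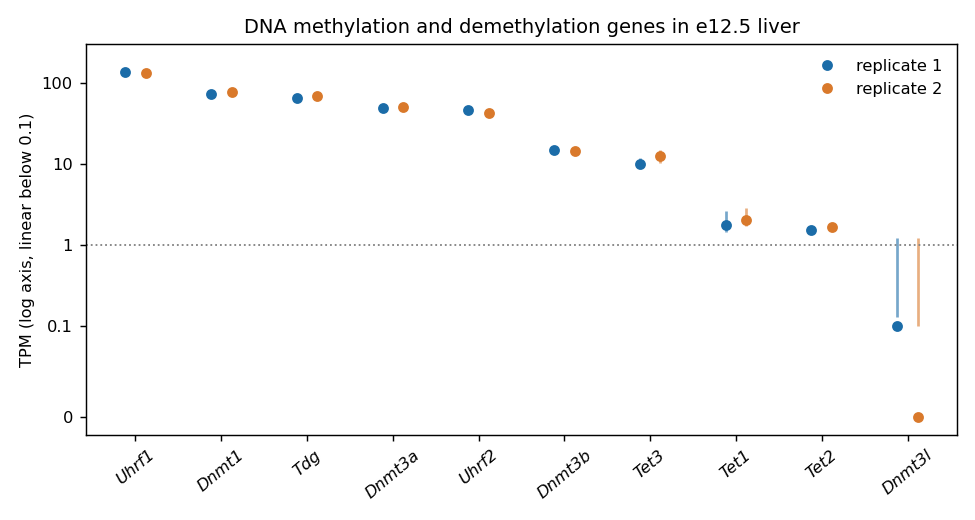
TPM of each gene in both libraries (points) with the deposited bounds of TPM (lines, level not stated), on an axis that is logarithmic above 0.1 TPM. The dotted line marks 1 TPM; 9 genes lie above it and Dnmt3l lies at 0.10 and 0 TPM, below its own bounds. Dnmt1 lies slightly above its upper bounds of 73.03 and 75.81 TPM.

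The order was the same in both libraries. For each of the 9 pairs of neighbours in the order, both values of the higher gene exceeded both values of the lower one. The deposited bounds of a library's TPM were less clear for 3 of these pairs. They overlapped for Tet1 and Tet2 in both libraries, for Dnmt3a and Uhrf2 in replicate 1, and for Dnmt3b and Tet3 in replicate 2. The bounds are not always centred on the TPM: those of Dnmt1 ended at 73.03 and 75.81 TPM, just under its TPM of 73.06 and 75.92.

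Among the maintenance factors, Uhrf1 (ENSMUSG00000001228.10, mm10 chr17:56303321-56323486, plus strand) had 134 and 133 TPM in replicates 1 and 2, a mean of 133 ± 1.22 TPM (SD, n = 2). This was above 92.5% of detected protein-coding genes. Its reads came to 13730 and 12588. The annotation gives Uhrf1 a pair of starts 1027 bases apart, and both carried RNA at similar levels. Models from the upstream start, Uhrf1-201 and Uhrf1-203, held 46.0% of the gene's TPM in replicate 1 and 49.0% in replicate 2. Models from the downstream start, Uhrf1-202 and Uhrf1-204, held 49.7% and 47.0%, so the order of the starts differed between the libraries. The leading model was Uhrf1-204 with 48.3% and 44.3%, followed by Uhrf1-201 with 26.1% and 28.8% and Uhrf1-203 with 19.9% and 20.2%.

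Dnmt1 (ENSMUSG00000004099.11, mm10 chr9:20907209-20959888, minus strand), the maintenance methyltransferase, had 73.1 and 75.9 TPM in replicates 1 and 2, a mean of 74.5 ± 2.02 TPM (SD, n = 2). It was the highest of the Dnmt genes. Uhrf1 stood above Dnmt1 by 1.84 times in replicate 1 and 1.75 times in replicate 2, and Dnmt1 stood above Dnmt3a by 1.48 and 1.52 times. Of its 3 annotated models, Dnmt1-201, with a coding length of 4860 bases, held 69.1% and 70.8% of TPM. Dnmt1-202 starts 6909 bases further upstream, has a coding length 357 bases shorter, and held 28.95% and 27.31%. Its level was 21.2 TPM in replicate 1, with deposited bounds of 18.1 to 23.6, and 20.7 TPM in replicate 2, with 17.4 to 23.6. All 3 models end at the same base, and the split between them is the quantifier's assignment of shared reads. As background, mouse oocytes and somatic cells are known to use separate Dnmt1 first exons, and the annotation does not say which model belongs to which.

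The promoter windows of the Dnmt1-201 and Dnmt1-202 starts are shown because their CpG content differs, and CpG is the site these enzymes act on. Each window runs from 250 bases before to 50 after an annotated start (RefSeq, GRCm38.p6) and is written 5′ to 3′ along the gene, with the dinucleotide CG, which reads the same on both strands, in capitals. No other motif was searched.
Dnmt1-201 start, chr9:20952930-20953229, minus strand: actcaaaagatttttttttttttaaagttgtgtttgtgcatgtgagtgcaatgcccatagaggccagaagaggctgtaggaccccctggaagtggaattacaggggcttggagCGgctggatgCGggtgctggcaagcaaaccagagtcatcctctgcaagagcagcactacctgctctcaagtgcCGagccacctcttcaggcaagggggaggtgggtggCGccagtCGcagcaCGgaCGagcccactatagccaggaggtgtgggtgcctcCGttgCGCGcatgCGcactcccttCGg
Dnmt1-202 start, chr9:20959839-20960138, minus strand: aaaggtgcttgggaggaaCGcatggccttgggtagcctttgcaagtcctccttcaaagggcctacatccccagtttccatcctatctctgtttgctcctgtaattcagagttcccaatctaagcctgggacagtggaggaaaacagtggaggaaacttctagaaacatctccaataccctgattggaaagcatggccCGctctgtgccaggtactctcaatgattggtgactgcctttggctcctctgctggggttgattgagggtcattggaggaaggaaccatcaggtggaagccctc
The window of the Dnmt1-201 start holds 12 CpG, and 39.6% of the 32851 promoter windows hold at least as many. The window of the Dnmt1-202 start holds 2 CpG, and 85.9% of windows hold at least as many. The start of the third model, Dnmt1-203, lies 356 bases downstream of that of Dnmt1-201. Its window holds 33 CpG, while the model itself held 1.99% and 1.92% of TPM.

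Uhrf2 (ENSMUSG00000024817.9, mm10 chr19:30030513-30093722, plus strand), the paralog of Uhrf1, had 46.2 and 42.5 TPM in replicates 1 and 2, a mean of 44.3 ± 2.61 TPM (SD, n = 2). Only 1 of its 9 models, Uhrf2-201, is annotated as protein coding. That model held 45.4% of TPM in replicate 1 and 50.2% in replicate 2, which is 20.95 and 21.33 TPM. By expected reads it held more of the gene, 64.0% and 68.0%, so the majority depended on whether transcripts or reads were counted. The other 8 models are annotated as retained introns, meaning that they keep intron sequence and code for no protein. Together they held 54.6% and 49.8% of TPM. The leading one was Uhrf2-203, of 1392 bases against 3536 for Uhrf2-201, with 30.2% and 25.9%. Uhrf2-202 held 9.85% and 9.70%, and Uhrf2-206 held 7.99% and 8.45%. The libraries were of total RNA, and a part of unspliced RNA in these shares was not tested. Of the 5 detected genes with retained-intron models, Uhrf2 was the 1 whose share of TPM in them was at least 25% in both libraries. The same held for 17.1% of the 4864 detected protein-coding genes with such models. The median share over those genes was 7.32% in replicate 1 and 7.37% in replicate 2, and the mean share of Uhrf2 was above that of 95.8% of them. Uhrf1 stood above Uhrf2 by 2.91 and 3.12 times over all models, and by 6.13 and 5.97 times over protein-coding models alone.

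**Figure D2:**
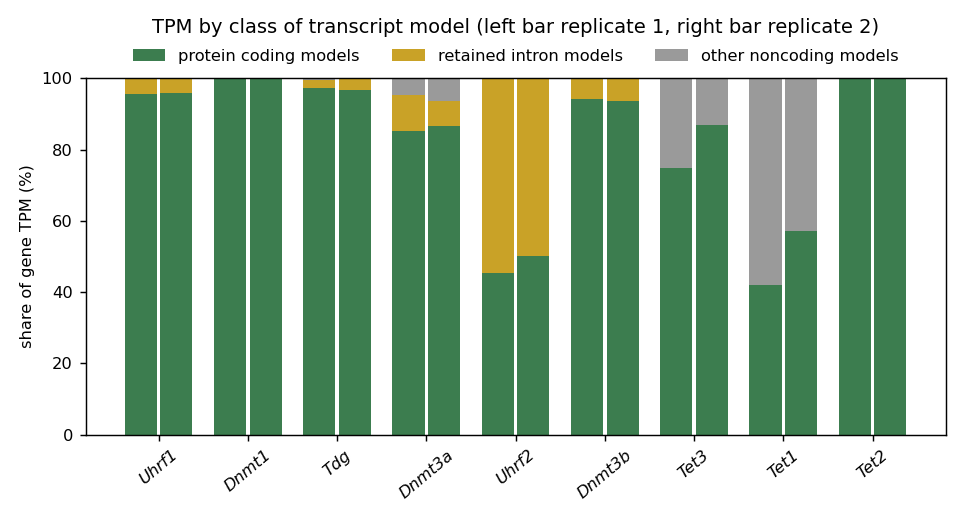
Share of each detected gene's TPM (percent) in protein-coding, retained-intron and other noncoding transcript models, with replicate 1 in the left bar and replicate 2 in the right bar. Dnmt1 and Tet2 have coding models only, retained-intron models hold 54.6% and 49.8% of Uhrf2, and other noncoding models hold 58.0% and 42.7% of Tet1.

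Of the de novo methyltransferases, Dnmt3a (ENSMUSG00000020661.11, mm10 chr12:3806007-3914443, plus strand) had 49.37 and 49.99 TPM in replicates 1 and 2, a mean of 49.7 ± 0.438 TPM (SD, n = 2), from 4986 and 4767 reads. Its level was 3.33 times that of Dnmt3b in replicate 1 and 3.49 times in replicate 2. Dnmt3a has a long form read from its first promoter and a short form read from an internal one. The short form lacks the amino-terminal part of the protein, and as background it is known as the prevailing form of mouse embryonic stem cells and germ cells. The internal start, that of Dnmt3a-205, lies 84698 bases downstream of the start of Dnmt3a-201, and the coding length is 657 bases shorter, 2067 against 2724. Windows of the first and the internal promoter are shown, in the same format and again with CG in capitals, because the shares below are split by them. RefSeq places the first start 50 bases before that of Dnmt3a-201, so the first window ends just before the first base of that model.
Dnmt3a first promoter, chr12:3806730-3807029, plus strand: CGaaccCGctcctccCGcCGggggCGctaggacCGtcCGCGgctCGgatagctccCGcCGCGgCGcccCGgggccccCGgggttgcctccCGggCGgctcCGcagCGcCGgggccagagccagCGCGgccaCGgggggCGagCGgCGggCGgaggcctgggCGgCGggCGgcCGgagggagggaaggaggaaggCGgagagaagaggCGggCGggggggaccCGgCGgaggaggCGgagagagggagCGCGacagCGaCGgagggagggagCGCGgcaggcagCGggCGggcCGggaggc
Dnmt3a internal promoter, chr12:3891494-3891793, plus strand: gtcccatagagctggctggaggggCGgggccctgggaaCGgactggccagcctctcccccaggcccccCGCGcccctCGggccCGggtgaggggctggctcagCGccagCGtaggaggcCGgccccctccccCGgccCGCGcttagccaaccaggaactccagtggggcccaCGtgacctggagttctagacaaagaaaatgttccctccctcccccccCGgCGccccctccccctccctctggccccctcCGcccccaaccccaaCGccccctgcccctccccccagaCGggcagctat
The internal window holds 18 CpG, and 29.7% of promoter windows hold at least as many. The first window holds 46 CpG, a number reached by 1.65% of windows.

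The form of Dnmt3a that led depended on whether transcripts or reads were counted. By TPM, the short coding models Dnmt3a-205 and Dnmt3a-203 reached 27.5 and 26.8 TPM in replicates 1 and 2, which is 55.8% and 53.6% of the gene. The long coding models reached 8.27 and 8.71 TPM, or 16.8% and 17.4%, all of it on Dnmt3a-201, while Dnmt3a-218 was listed at 0. The short forms were thus 3.33 and 3.07 times the long ones. By expected reads, the long models held 50.1% and 51.0% of the gene and the short ones 41.5% and 39.4%, a ratio of short to long of 0.829 and 0.773. The models also differ in length: Dnmt3a-201 has 9685 bases and Dnmt3a-205 has 2328, and Dnmt3a-205 ends 6601 bases before the 3′ end of Dnmt3a-201. The second short model, Dnmt3a-203, has 5424 bases, shares the distant 3′ end, and held 2.86% and 3.11% of TPM. The short form's larger share of TPM therefore sits on Dnmt3a-205, with 52.9% and 50.5%. Its deposited bounds were 22.5 to 27.6 TPM and 21.6 to 27.8 TPM in the libraries, above the bounds of Dnmt3a-201, 7.52 to 8.51 and 7.87 to 8.95 TPM. The effect of the 3′ end on this split was not tested.

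The other 14 Dnmt3a models held 27.5% of TPM in replicate 1 and 29.0% in replicate 2, but 8.45% and 9.56% of reads. Many of them are short fragments. Dnmt3a-206 had 7.42% and 6.91% of TPM, Dnmt3a-210 3.72% and 7.30%, Dnmt3a-214 5.94% and 4.2%, and Dnmt3a-215 3.80% and 6.48%. The antisense gene Dnmt3aos, which lies within Dnmt3a, had 0 and 1 reads.

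**Figure D3:**
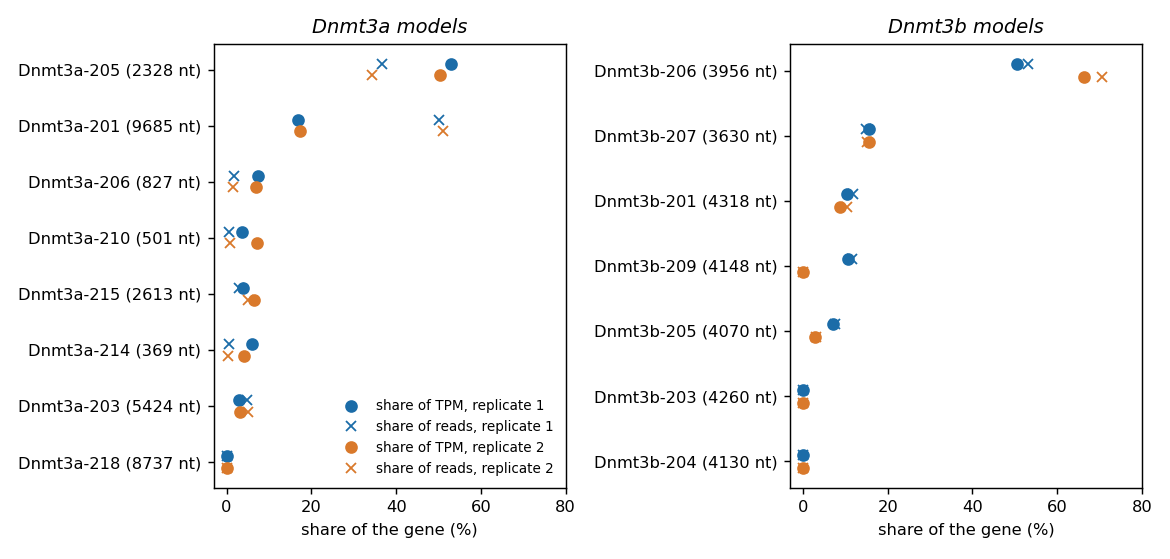
Share of the gene's TPM (circles) and of its expected reads (crosses) on selected models of Dnmt3a and Dnmt3b in each library, with model lengths in nucleotides. For Dnmt3a the circles place Dnmt3a-205 first and the crosses place Dnmt3a-201 first; for Dnmt3b both place Dnmt3b-206 first in both libraries.

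Dnmt3b (ENSMUSG00000027478.11, mm10 chr2:153649450-153687730, plus strand) had 14.8 and 14.3 TPM in replicates 1 and 2, a mean of 14.6 ± 0.361 TPM (SD, n = 2), from 1721 and 1515 reads. Its coding models differ by alternative exons at a pair of sites. They also differ at the start of another coding exon, at chr2:153675726 in Dnmt3b-201 and 153675729 in Dnmt3b-206 and Dnmt3b-209. The shares that follow were grouped by the pair of sites alone. The first cassette is 1 exon of 60 bases, and the second is a pair of exons of 70 and 119 bases that together make 189 bases. Both lengths are multiples of 3, so skipping keeps the reading frame and removes 20 and 63 codons. The second cassette lies in the catalytic domain, and forms without it are known as catalytically inactive forms of somatic cells. Each cassette is present in 6 of the 10 coding models. The sequences below show what is joined when a cassette is kept or skipped, with cassette bases in capitals and 15 bases of each flanking exon in lower case.
First cassette kept (Dnmt3b-201), exon at chr2:153670849-153670908, plus strand: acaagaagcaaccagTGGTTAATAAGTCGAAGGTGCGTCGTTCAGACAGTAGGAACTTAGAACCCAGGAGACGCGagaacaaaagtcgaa
First cassette skipped (Dnmt3b-206): acaagaagcaaccagagaacaaaagtcgaa
Second cassette kept (Dnmt3b-201), exons within chr2:153683608-153684477, plus strand: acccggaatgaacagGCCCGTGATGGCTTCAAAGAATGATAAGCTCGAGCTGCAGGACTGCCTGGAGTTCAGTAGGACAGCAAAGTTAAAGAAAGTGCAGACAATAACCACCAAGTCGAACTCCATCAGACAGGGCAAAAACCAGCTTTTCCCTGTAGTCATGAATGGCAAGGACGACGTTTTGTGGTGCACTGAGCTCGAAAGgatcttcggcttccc
Second cassette skipped (Dnmt3b-206): acccggaatgaacaggatcttcggcttccc

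Models without the second cassette held most of the Dnmt3b RNA in both libraries. They had 8.56 of 14.8 TPM and 9.90 of 14.3 TPM in replicates 1 and 2, which is 57.7% and 69.1%, and by the deposited posterior means 56.0% and 66.2%. Most of it was Dnmt3b-206, which lacks both cassettes, with 50.6% and 66.3%, and the rest was Dnmt3b-205, which also lacks both, with 7.10% and 2.77%. Models with both cassettes held 26.0% and 24.4%, on Dnmt3b-207 with 15.6% and 15.5% and Dnmt3b-201 with 10.4% and 8.87%. The split within this pair was uncertain, since by posterior means Dnmt3b-201 held 5.31% and 6.15%, with a lower bound of 3.42e-06 TPM in replicate 1 and 0.053 TPM in replicate 2. Models with only the first cassette were listed at 0 in both libraries. The libraries also differed for models with only the second cassette, which held 10.6% in replicate 1 and 0 in replicate 2. This rested on Dnmt3b-209, with 200 estimated reads in replicate 1 and 0 in replicate 2, and deposited bounds of 0.117 to 2.52 TPM in replicate 1 and an upper bound of 0.792 TPM in replicate 2. Each share is the quantifier's assignment of reads that mostly match several models, and no count of reads across the cassette junctions was used here.

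**Figure D4:**
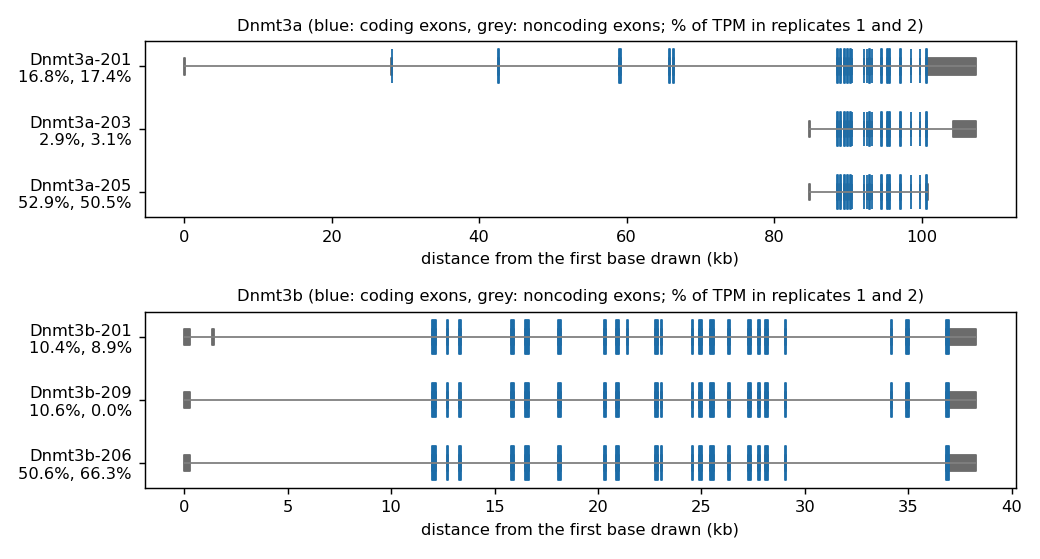
Exons of 3 Dnmt3a and 3 Dnmt3b models by distance from the first base drawn, in kb, with coding exons in blue, noncoding exons in grey, and each model's percent of the gene's TPM in replicates 1 and 2 at the left. Dnmt3a-205 lacks the first exons and the long 3′ end of Dnmt3a-201, and Dnmt3b-206 lacks the coding exons that Dnmt3b-201 has in its first and second cassettes.

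Dnmt3b has a near relative beside it, Dnmt3c, a rodent duplicate known for silencing transposons in male germ cells. Dnmt3c was listed at 34.2 and 22.3 reads, 0.51 and 0.36 TPM. These counts and those of Dnmt3b were fractional, while the sums of both genes were whole, 1755 in replicate 1 and 1537 in replicate 2. The reads of the pair were thus divided between the genes, and the level of Dnmt3c is uncertain. Its reads were few beside the 1721 and 1515 of Dnmt3b.

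Dnmt3l (ENSMUSG00000000730.9, mm10 chr10:78041947-78063622, plus strand), the cofactor of germ cells, had 1 read in replicate 1 and 0 in replicate 2. The single read lay on Dnmt3l-207, a retained-intron model of 409 bases, and gave 0.10 TPM. The annotated coding models were at 0 in both libraries. A floor of 3 reads on the longest coding model allows up to 0.0553 and 0.0598 TPM. The deposited posterior means were 0.59 and 0.56 TPM, with bounds of 0.132 to 1.22 and 0.101 to 1.22, all above the deposited TPM of 0.10 and 0. Dnmt3l overlaps Aire on the opposite strand, and the labels give no strandedness. The germ and pluripotent cell markers Pou5f1, Nanog, Dppa3, Ddx4, Dppa5a and Zfp42 were likewise all under 1 TPM, with Dppa5a and Zfp42 at 0 in both libraries and summed levels of 0.32 and 0.70 TPM.

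Among the demethylation enzymes, Tet3 (ENSMUSG00000034832.11, mm10 chr6:83362373-83459084, minus strand) was the most abundant Tet gene. It had 10.1 and 12.5 TPM in replicates 1 and 2, a mean of 11.3 ± 1.73 TPM (SD, n = 2), and 75.3% and 77.1% of the summed TPM of the Tet genes. It stood above Tet1 by 5.76 and 6.08 times and above Tet2 by 6.46 and 7.55 times. The spread of Tet3 between the libraries came with its shortest model. That model, Tet3-204, is annotated as protein coding and has 469 bases. It held 6.55% of TPM in replicate 1 and 29.0% in replicate 2, from 7.69 and 39.2 estimated reads. Without Tet3-204 the gene had 9.42 and 8.89 TPM, so that replicate 2 over replicate 1 was 0.944 in place of 1.24. The total reads, 2122 and 2043, were close.

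The main coding model, Tet3-202, held 41.7% and 36.0% of Tet3 TPM. Tet3-203, which starts 14717 bases further upstream and has a coding length of 5409 bases, against 5004 for Tet3-202, held 26.6% and 21.9%. The noncoding model Tet3-201 held 25.2% and 13.1%. The effective length of Tet3, the mean length over its models weighted by abundance, was 6691 in replicate 1 and 5595 in replicate 2. Tet3 was the 1 gene of the 8 detected ones with at least 2 models whose effective length differed by 1.1-fold or more, which was the case for 11.0% of such protein-coding genes. In 0 of the 8 did the leading model differ between the libraries, against 8.06% of all such genes.

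Tet1 (ENSMUSG00000047146.11, mm10 chr10:62804570-62908996, minus strand) had 1.75 and 2.06 TPM in replicates 1 and 2, a mean of 1.91 ± 0.219 TPM (SD, n = 2), from 330 and 380 reads. Tet2 (ENSMUSG00000040943.8, mm10 chr3:133463679-133545139, minus strand), which is often mutated in human blood cancers, had 1.56 and 1.66 TPM, a mean of 1.61 ± 0.0707 TPM (SD, n = 2), from 447 and 440 reads on its single model. Their order depended on which Tet1 models were counted. The noncoding model Tet1-202, of 1505 bases, held 40.3% and 42.8% of Tet1 TPM from 31.3 and 36.1 reads. The long coding model Tet1-206, of 14369 bases, held 36.9% and 38.7% from 291 and 332 reads. Tet1-204 held 17.9% and 0%, Tet1-205 held 4.94% and 18.5%, and the other long coding model, Tet1-201, was listed at 0. Over protein-coding models, Tet1 had 0.74 and 1.18 TPM, below Tet2 in both. The promoter window of Tet2 holds 57 CpG, the most of any of the 17 windows of these genes, and 0.152% of all windows hold as many or more.

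Tdg (ENSMUSG00000034674.14, mm10 chr10:82629828-82650799, plus strand), the glycosylase that acts after the Tet enzymes, had 64.3 and 69.2 TPM in replicates 1 and 2, a mean of 66.8 ± 3.45 TPM (SD, n = 2). Its level was above that of all 3 Tet genes added together, 13.4 and 16.3 TPM. A pair of coding models carried most of the RNA. Tdg-201, with a coding length of 1191 bases, held 48.6% and 50.2% of TPM, and Tdg-208, with 1263, held 35.4% and 32.1%. The shorter model Tdg-210 held 12.9% and 13.8%. Tdg has a processed relative, Tdg-ps on chromosome 15, which was listed at 7.60 and 14.5 reads, and the counts of Tdg were not whole, so a few reads may have been divided between them. Tdg overlaps Glt8d2 on the opposite strand, and with no strandedness given their shared reads cannot be told apart.

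As groups, the methyltransferase genes Dnmt1, Dnmt3a and Dnmt3b summed to 137 and 140 TPM in replicates 1 and 2. This sum was 10.3 and 8.63 times that of the Tet genes. The Tet sum includes noncoding models of Tet1 and Tet3. It also includes the short model Tet3-204, at 0.66 and 3.64 TPM, so no change of the ratio between the libraries is drawn. TPM counts RNA and not protein or activity. Over the 17 promoter windows of the 10 genes, CpG numbers ran from 2 at the upstream Dnmt1 start to 57 at Tet2, and 13 windows were above the median of 7 over all windows. The windows of Dnmt3a-201 and Dnmt3a-218 overlap, and no quantified model starts within 50 bases of the Tet1 start used. The 3 windows of Dnmt3l, the gene that was not detected, held 6, 4 and 3 CpG. Tet2, the lowest of the detected genes by TPM over all models, had the most. Over protein-coding models Tet1 was lower than Tet2, with means of 0.96 and 1.61 TPM. A link between CpG number and RNA level was not tested.

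The pools gave close values. The limit for a difference was a higher value more than 25% above the lower one. Of the 9 genes with a mean of at least 50 expected reads, 0 passed it, against 8.65% of all 13017 genes tested. Tet3 came nearest, with a log2 ratio of replicate 1 over replicate 2 of -0.31, and by reads scaled with edgeR's TMM factors its ratio was -0.06. The median size of the log2 ratio was 0.08 over the 9 genes and 0.08 over all genes tested. By TMM-scaled reads, the ratio of replicate 1 over replicate 2 was 0.805 for Tet1 (exact 95% interval 0.692 to 0.935), 0.951 for Tdg (0.916 to 0.988) and 0.963 for Dnmt1 (0.939 to 0.988). The intervals of the other 6 genes included 1. Scaling by the spike-ins shifted the median log2 ratio of all genes from 0.01 to 0.12 and turned the sign for Dnmt1, Dnmt3a, Tdg and Tet2, so no direction is drawn for them. These intervals cover counting error only, since each pool gave 1 library and the spread between pools is not in them. PCR copies of a molecule were not told apart, so the intervals may be too narrow for counting error as well.

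Genes that work beside these enzymes were mostly detected as well. For comparison with the counts on each list, 54.5% of all protein-coding genes were detected. All 8 maintenance partners were detected, and their median was 33.9 TPM. They were led by the replication clamp Pcna with 310 ± 3.32 TPM (SD, n = 2, as for the values that follow), the ligase Lig1 with 112 ± 2.91 TPM and Cdca7, the partner of the remodeller Hells, with 85.5 ± 2.61 TPM. Of the genes of the methyl donor cycle, 5 of 6 were detected (median 33.6 TPM). Mat2a, which makes the methyl donor S-adenosylmethionine, had 221 ± 2.91 TPM, Ahcy, which clears its product, 58.0 ± 0.948 TPM, and Mat2b, the regulatory partner of Mat2a, 56.7 ± 0.509 TPM. Mat1a, the enzyme form of the adult liver, was at 0.47 TPM in both libraries.

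On the list of methyl-CpG readers and related genes, 7 of 8 were detected (median 9.23 TPM), close to the level of Tet3. Mbd3, listed by its family and not as a selective reader, had 119 ± 3.95 TPM. Mbd1 had 21.2 ± 0.297 TPM and Mbd4, a reader that is also a glycosylase, 12.2 ± 1.23 TPM, while Zbtb4 had 0.61 and 0.37 TPM. On the list of excision repair genes, which holds glycosylases other than Tdg as well as later steps, 10 of 11 were detected (median 28.3 TPM). The endonuclease Apex1 had 131 ± 1.94 TPM, Parp1 98.8 ± 2.37 TPM and the scaffold Xrcc1 39.9 ± 0.127 TPM, and the glycosylase Neil2 was at 0.09 and 0.13 TPM. Of the cofactor and partner genes of the Tet enzymes, 6 of 7 were detected (median 17.6 TPM). Idh2 and Idh1, which make the Tet cosubstrate 2-oxoglutarate, had 139 ± 0.834 and 67.0 ± 0.283 TPM, the Tet-bound glycosyltransferase Ogt had 59.0 ± 0.707 TPM, and Cxxc4 had 0.47 and 0.42 TPM.

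Of the imprint protection genes, 4 of 6 were detected (median 13.5 TPM). The corepressor Trim28 had 177 ± 2.40 TPM, Ctcf 79.3 ± 2.92 TPM and the zinc finger gene Zfp445 17.0 ± 1.32 TPM. Ctcfl, at 0.05 and 0.03 TPM, and Dppa3, at 0 and 0.12 TPM, are germ cell genes and were not detected. Of the deaminase and Gadd45 genes, 5 of 7 were detected (median 3.31 TPM). Gadd45a had 80.5 ± 5.16 TPM, the antiviral deaminase Apobec3 62.7 ± 1.16 TPM and Gadd45g 19.8 ± 0.742 TPM. Between the libraries, Zbtb4 and Gadd45b, at 1.31 and 1.76 TPM, passed the limit of 25%, and 0 of the other genes on these lists with a mean of 50 reads did. Over all genes tested, 8.65% passed it.

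Germline genes known to be kept silent by promoter methylation in somatic tissue were the exception. Of 12 such genes, 0 were detected, and they had a median of 0.0325 TPM and summed levels of 0.85 and 1.01 TPM. Dpep3 and Tex101 were at 0 in both libraries, Mael was at 0.02 and 0 TPM and Taf7l at 0 and 0.02 TPM. Ddx4, which is also on the germ cell marker list, was the highest, at 0.30 and 0.44 TPM, followed by Brdt at 0.18 and 0.21 TPM and Slc25a31 at 0.12 and 0.07 TPM. No methylation was measured here, so the state of these promoters is unknown.

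**Figure D5:**
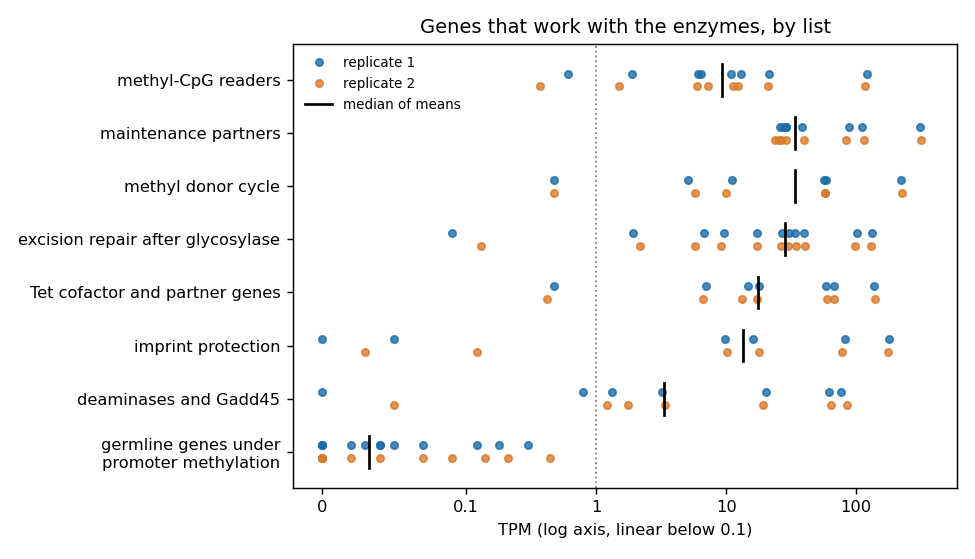
TPM of the genes on 8 lists in each library (points) and the median of the list's mean TPM (black bar), on an axis that is logarithmic above 0.1 TPM. The maintenance partners lie between 23.6 and 312 TPM, and the 12 germline genes all lie below the dotted line at 1 TPM.

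The tissue matched its label by markers. All 5 erythroid and all 5 hepatoblast markers were detected, with medians of 464 and 905 TPM, and Hbb-bs alone had 46192 and 48427 TPM. All 7 S phase genes were detected, at a median of 207 TPM and summed levels of 1711 and 1673 TPM, and 0 of them differed by 25% between the libraries. Macrophage, endothelial and stem or progenitor markers were also present, with medians of 16.6, 10.0 and 20.8 TPM. Which of these cells carried the RNA of the methylation enzymes was not tested.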

How the data were processed

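Total RNA of 2 libraries, 1 pool of embryonic livers each, was analysed. Extraction used the Ambion mirVana kit, each library began with 10 ng, and spike-ins were added, per the labels. The authors deposited a gene and a transcript table per library, quantified on mm10 with GENCODE M4 per the file headers. Which aligner and quantifier made them is not given in the sources used here. Deposited expected counts are estimated reads per feature, not normalized, and reads matching several models are divided among them. The deposited TPM and FPKM are scaled by the authors for effective length and for the table's total, spike-ins included. The authors also deposited the percent of a gene's TPM on each transcript, and bounds of TPM as a signal interval of unstated level. FPKM served only as an alternative.

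The libraries held 37.6 M and 34.7 M expected counts. Symbols were matched by unversioned gene identifier. Coordinates, model types and exons came from GENCODE M21 on the same assembly, and 76 of the 79 models of these genes had the same length in it. Promoter windows came from RefSeq GRCm38.p6. Genes at 1 TPM in both libraries were called detected. Library ratios added 0.1 TPM and needed a mean of 50 reads. Exact 95% Clopper-Pearson intervals used counts rounded to whole numbers and TMM factors from edgeR 4.0.16 in R 4.3.3, and DESeq2 1.42.0 gave alternative factors. Counts of 7 of the 10 genes were whole, within 0.005 of a whole number, in both libraries; those of Uhrf1, Tdg and Dnmt3b were not. The scaling step was tested on simulated data with counting error only, so that test does not cover the spread between pools. Named were all 10 genes, their models with a mean share of at least 5%, the other promoter or cassette forms, and of each list of partner, pathway and germline genes the 3 highest and up to 4 under 1 TPM, except 1 gene that is not reported here. The genes, lists and limits were chosen with earlier results of these data known. Nothing in the labels says that the pools differ in more than their embryos, and the spread between them may be technical in part.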

Additional observations from a re-analysis of the deposited data

How the results depend on the processing

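The count of detected genes, 9, was unchanged at 0.5 TPM, by FPKM of at least 1 and in each library alone, and was 7 at 5 TPM. Over protein-coding models only it was 8, since Tet1 had 0.74 TPM in replicate 1. The count of genes over 25% apart between the libraries, 0, was unchanged with edgeR's TMM factors, DESeq2's size factors, spike-in scaling, a pseudocount of 1 and no pseudocount. It was 1 with no filter on low counts, through the single Dnmt3l read. It was 2 over protein-coding models only, through Tet1 and Tet3, with log2 ratios of -0.61 and -0.53. Counting coding models only was chosen after seeing the data. The order of Tet1 and Tet2 also turned there, and Uhrf1 over Uhrf2 was 6.05 in place of 3.01. By expected reads in place of TPM, Dnmt3a-201 exceeded Dnmt3a-205. By posterior means the share of Dnmt3b-201 was 5.73% in place of 9.62%. Depth limits Dnmt3l, Tet1 and the rarer models most. No paired analysis was possible because the libraries form 1 group.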
